A study of Homo sapiens with 6 samples.

Results

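The HIF subunits and oxygen-sensing regulators described here are 10 genes chosen by name: the alpha subunits HIF1A, EPAS1 and HIF3A, the beta subunits ARNT and ARNT2, the prolyl hydroxylases EGLN1, EGLN2 and EGLN3, the asparaginyl hydroxylase HIF1AN, and VHL. Of these, 9 were among the 17448 genes listed and all 9 were tested. HIF3A expression was not analysed here. RNA was measured in HCC2814, a human lung squamous cell carcinoma (LUSC) line grown in DMEM with fetal bovine serum. The 3 WT samples carried a non-targeting CRISPR guide (sgCtrl) and the 3 MLST8-KO samples a guide against MLST8 (sgmL8), a subunit of the mTOR kinase complexes that the study used to disable mTORC2. Guides were delivered in a lentiviral CRISPR vector followed by antibiotic selection, so WT cells had also been transduced and selected. Cells were kept in humidified air with added CO2, with no hypoxic exposure described for these samples. Whether the numbered samples of a group differ by culture, guide or clone was not given in the sources used here. The study's western blots of this line list 3 numbered sgControl and 3 numbered sgMLST8 entries. Whether these correspond to the RNA samples was not stated.

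HIF is a heterodimer of an oxygen-labile alpha subunit and a stable beta subunit. In oxygenated cells the EGLN enzymes (PHD proteins) hydroxylate prolines of the alpha subunit, the VHL protein binds the hydroxylated form, and the ubiquitin ligase that VHL recruits marks it for destruction. HIF1AN (factor inhibiting HIF) hydroxylates an asparagine and so blocks the binding of coactivators. Because these steps act on protein, the mRNA values below measure the supply of transcripts and not HIF activity.

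Total estimated counts ran from 14381673 to 15744154 per sample. MLST8 stood at 63.5, 61.4 and 62.9 TPM (a read abundance corrected for transcript length and library size) in WT and at 30.04, 47.3 and 28.0 TPM in MLST8-KO, a log2 fold change of -0.96 (SE 0.15, edgeR adjusted p = 0.00339). The knockout acts on DNA, and MLST8-KO replicate 2 kept the most transcript of its group. All 7 squamous markers were detected. Their summed level was 9790 to 15020 TPM in WT and 18750 to 20860 TPM in MLST8-KO, and 7 of 7 were called higher. Of 5 endothelial markers, none exceeded 1 TPM, with CDH5, KDR and TEK at or near 0 and a sum of 0.81 to 1.13 TPM in WT against 0.53 to 0.85 TPM in MLST8-KO. The fibroblast list (5 genes) summed to 10.1 to 11.2 TPM in WT and 11.3 to 13.3 TPM in MLST8-KO, nearly all COL1A1. The leukocyte list (3 of 5 listed) summed to 56.8 to 80.1 TPM and 46.1 to 64.2 TPM, nearly all CD68, with PTPRC at or near 0. Of 4 alveolar markers, 3 were listed. Their sum was 1.43 to 3.39 TPM in WT and 7.62 to 9.63 TPM in MLST8-KO, nearly all NKX2-1. MLST8-KO replicate 1 stood apart by its 6 liver genes, which summed to 231.7 TPM there and to at most 5.95 TPM in any other sample. WT samples also differed among themselves. Over the 4146 genes called by edgeR, WT replicate 1 was the WT sample nearest to the MLST8-KO mean in 76.0% and WT replicate 3 the farthest in 75.1%. WT replicate 1 was likewise the nearest for all 4 called members. The part of these differences in the results below was not tested.

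Of the 9 members tested, 3 were higher in MLST8-KO cells (HIF1A, ARNT2 and EGLN2), 1 was lower (EPAS1) and 5 passed no threshold (ARNT, EGLN1, EGLN3, HIF1AN and VHL). Calls rest on the quasi-likelihood test of edgeR, with p-values adjusted (Benjamini-Hochberg) over all 12951 genes tested and an adjusted p under 0.05. Across those genes 16.3% were called higher and 15.7% lower, so calls were common throughout the transcriptome. The groups did not overlap in counts scaled to library size (CPM, with TMM factors) for 3 members that lay above WT and 2 that lay below (EPAS1 and VHL). The corresponding shares of all genes were 24.8% above and 24.2% below. The median log2 fold change was 0.12 over the 9 members and 0.00 over all genes tested. Of all calls, 51.0% were higher with TMM scaling, 62.0% with upper quartile scaling and 71.0% with limma on log2(TPM + 1). The median gene moved by 0.09 with that limma test and by 0.10 with a pseudocount of 0.1, so TPM differences are best read against a shift of that size. The libraries came from bulk cells, in which fewer cells of a type and less RNA per cell cannot be told apart.

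On the TPM scale, which allows levels of different genes to be compared, the members spanned from 0.88 to 130.4 TPM. HIF1A was the most abundant in each group. In WT cells it was followed by EPAS1, VHL, EGLN2 and EGLN1, where neighbours in the order overlapped in their sample ranges. ARNT, HIF1AN, ARNT2 and EGLN3 came next, each lying wholly below the gene before it. In MLST8-KO cells EGLN2 was second and lay apart from its neighbours, while VHL, EGLN1, EPAS1 and ARNT overlapped in that order. HIF1AN, ARNT2 and EGLN3 again held the last places. EPAS1 was thus the second by mean TPM in WT and came after VHL and EGLN1 in MLST8-KO, within overlapping ranges.

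**Figure D1:**
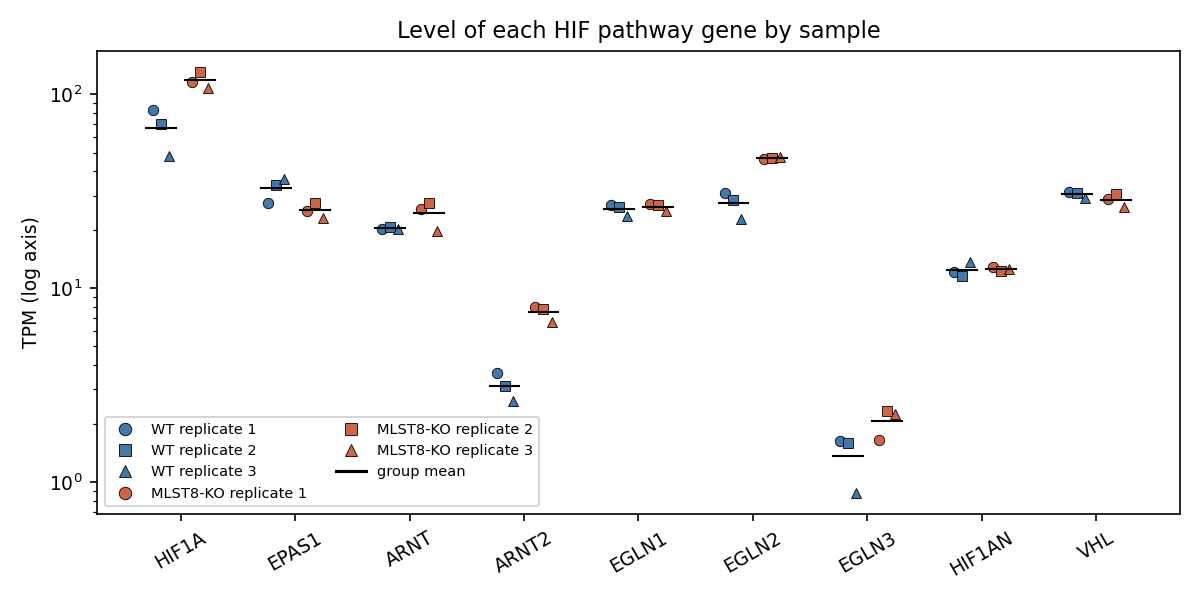
TPM of each gene on a log axis in the 3 WT samples (blue) and the 3 MLST8-KO samples (orange), with symbols for replicates and a bar at the group mean. The groups lie apart for HIF1A, ARNT2 and EGLN2 and, narrowly, for EGLN3 (1.63 TPM at most in WT and 1.65 TPM at least in MLST8-KO), and HIF1A is highest in both groups, at 66.9 TPM on average in WT and 117.6 TPM in MLST8-KO.

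The alpha subunits moved in opposite directions. HIF1A encodes HIF1α, the broadly expressed oxygen-regulated subunit, at chr14:61695513-61748259 (GRCh38, plus strand). Its level was 82.4, 70.3 and 48.0 TPM in WT replicates 1, 2 and 3 and 115.0, 130.4 and 107.4 TPM in MLST8-KO replicates 1, 2 and 3. Every MLST8-KO sample exceeded every WT sample, and the WT samples were the more scattered. HIF1A was 1.63-fold higher in MLST8-KO (95% confidence interval 1.29 to 2.07), a log2 fold change of 0.71 (SE 0.15, edgeR adjusted p = 0.00887). Leaving out WT replicate 3 gave 0.53 and leaving out WT replicate 1 gave 0.88, and the call held in each case. The gene overlaps the antisense transcripts HIF1A-AS1 and HIF1A-AS2, which were not analysed here. As the strand setting of the counting was not given in the sources used here, reads of the antisense genes cannot be told apart from those of HIF1A.

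EPAS1 encodes HIF2α, the alpha subunit first described in endothelium, at chr2:46293667-46386703 (plus strand). Scaled for library size, EPAS1 stood at 75.6, 92.5 and 104.5 CPM in WT replicates 1, 2 and 3 and at 63.8, 68.8 and 60.3 CPM in MLST8-KO replicates 1, 2 and 3. All MLST8-KO samples lay below all WT samples, with WT replicate 1 the closest. EPAS1 fell to 0.708 of its WT level (95% confidence interval 0.592 to 0.846), a log2 fold change of -0.50 (SE 0.12, edgeR adjusted p = 0.0113). On the TPM scale the groups touched, since MLST8-KO replicate 2 reached 27.55 TPM and WT replicate 1 stood at 27.51 TPM. The change on that scale was -0.36 (limma on log2(TPM + 1), adjusted p = 0.0463). Of the endothelial markers, PECAM1 (at most 0.68 TPM) was also called lower and VWF (at most 0.5 TPM) was not. Their part in the EPAS1 result was not tested.

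Within the alpha pair the balance of transcripts differed by group. EPAS1 made up 25.0%, 32.6% and 43.1% of the summed HIF1A and EPAS1 TPM in WT replicates 1, 2 and 3. In MLST8-KO its share was 17.9%, 17.4% and 17.6%. The WT shares were widely spread and all lay above the closely grouped MLST8-KO shares. The mean fell from 33.6% ± 9.09 to 17.6% ± 0.239 (SD, n = 3 each), and an exact two-sided permutation test gave p = 0.1, the smallest value that 3 against 3 samples allow (0.125 after adjustment over 5 shares). The summed alpha TPM was 109.9, 104.4 and 84.3 in WT and 140.1, 158.0 and 130.3 in MLST8-KO.

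The promoter windows of HIF1A and EPAS1 are shown because these paralogs moved apart. Each runs from 250 bases before to 50 bases after a RefSeq start site (GRCh38.p14), 5′ to 3′ on the strand of the gene, at chr14:61695263-61695562 (plus) and chr2:46297157-46297456 (plus). Capitals mark a core HIF-binding motif, searched as ACGTG and GCGTG on both strands.
HIF1A: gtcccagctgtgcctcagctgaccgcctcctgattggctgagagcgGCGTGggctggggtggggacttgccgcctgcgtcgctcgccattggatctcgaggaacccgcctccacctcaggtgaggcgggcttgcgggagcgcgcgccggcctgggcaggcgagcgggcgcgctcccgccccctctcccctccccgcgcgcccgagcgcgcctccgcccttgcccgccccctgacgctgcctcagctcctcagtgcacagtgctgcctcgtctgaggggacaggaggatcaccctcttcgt
EPAS1: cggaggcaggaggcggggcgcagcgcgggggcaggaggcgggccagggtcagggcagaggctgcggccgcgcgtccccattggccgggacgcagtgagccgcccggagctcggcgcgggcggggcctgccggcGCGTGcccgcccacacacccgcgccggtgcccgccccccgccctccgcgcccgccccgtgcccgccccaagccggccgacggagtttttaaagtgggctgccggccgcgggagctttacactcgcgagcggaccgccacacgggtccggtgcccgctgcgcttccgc
Each window held 1 match to GCGTG, at positions -204 to -200 in HIF1A and -117 to -113 in EPAS1 relative to the start site. A further HIF1A window held none. Of all 35116 promoter windows in the RefSeq table, 21.4% held ACGTG, 36.5% held GCGTG and 48.4% held either, so a match is common and describes letters only.

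Among the beta subunits, ARNT2 rose and ARNT passed no threshold. ARNT encodes HIF1β, the general partner of HIF alpha subunits and of the aryl hydrocarbon receptor, at chr1:150809705-150876768 (minus strand). It stood at 20.3, 20.8 and 20.2 TPM in WT and at 25.5, 27.6 and 19.6 TPM in MLST8-KO. MLST8-KO replicate 3 lay below all WT samples and the other 2 above them. The log2 fold change was 0.12 (SE 0.10, edgeR adjusted p = 0.376), with a 95% confidence interval of 0.931-fold to 1.27-fold.

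ARNT2 encodes a paralog of ARNT best known from neurons, at chr15:80404350-80597937 (plus strand). Its level was 3.65, 3.13 and 2.62 TPM in WT and 8, 7.83 and 6.67 TPM in MLST8-KO. The groups were well apart, and this was the largest difference among the 9 members. ARNT2 was 2.22-fold higher in MLST8-KO (95% confidence interval 1.82 to 2.70), a log2 fold change of 1.15 (SE 0.13, edgeR adjusted p = 0.00281), resting on 134 to 413 counts per sample. The antisense genes AC016705.1, AC108451.1 and AC108451.2 overlap ARNT2 on the other strand, and MIR5572 overlaps it on the same strand. None of them was analysed here, and without the strand setting their reads cannot be told apart from those of ARNT2. ARNT2 remained the minor beta transcript in every sample. Its share of the summed ARNT and ARNT2 TPM was 15.3%, 13.1% and 11.5% in WT and 23.9%, 22.1% and 25.4% in MLST8-KO (exact permutation p = 0.1, adjusted 0.125). The summed beta TPM was 23.9, 23.9 and 22.8 in WT and 33.5, 35.4 and 26.3 in MLST8-KO.

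Of the prolyl hydroxylases, only EGLN2 passed the test. EGLN2 (PHD1) lies at chr19:40798996-40808433 (plus strand). Its level was 30.9, 28.4 and 22.8 TPM in WT and 46.5, 46.7 and 47.7 TPM in MLST8-KO. All MLST8-KO samples lay above all WT samples and close together. EGLN2 was 1.60-fold higher (95% confidence interval 1.36 to 1.88), a log2 fold change of 0.67 (SE 0.11, edgeR adjusted p = 0.00342). The protein-coding gene AC008537.1 overlaps it on the same strand and was not analysed here. The read-through gene RAB4B-EGLN2 also overlaps EGLN2 on that strand and was not analysed here. Reads of the shared exons therefore cannot be assigned to one or the other. The upstream partner RAB4B, looked up after the EGLN2 value was seen, had 197 to 250 counts and a log2 fold change of -0.28 (SE 0.12, edgeR adjusted p = 0.0856).

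EGLN1 (PHD2), regarded as the main HIF prolyl hydroxylase of oxygenated cells, lies at chr1:231363751-231425044 (minus strand). It stood at 26.9, 26.1 and 23.4 TPM in WT and at 27.1, 26.9 and 24.8 TPM in MLST8-KO. The groups overlapped on both scales. The log2 fold change was -0.05 (SE 0.08, edgeR adjusted p = 0.622), with a 95% confidence interval of 0.859-fold to 1.08-fold. Its sign turned on the TPM scale (0.04) and under upper quartile scaling.

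EGLN3 (PHD3), itself a gene commonly induced by HIF, lies at chr14:33924231-34462774 (minus strand). It was the least abundant member, at 1.63, 1.59 and 0.88 TPM in WT and 1.65, 2.32 and 2.23 TPM in MLST8-KO. The groups lay narrowly apart on this scale and overlapped on the CPM scale, and 18 to 49 counts per sample stood behind the values. Its log2 fold change of 0.49 (SE 0.27, edgeR adjusted p = 0.181) had a 95% confidence interval from 0.931-fold to 2.13-fold. Without WT replicate 3, the lowest sample, the estimate was 0.28. EGLN3-AS1, not analysed here, overlaps it on the other strand, and SPTSSA overlaps it on the same strand.

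EGLN1 and EGLN2 contributed near-equal shares of EGLN transcripts in WT cells and unequal shares in MLST8-KO cells. EGLN2 made up 52.0%, 50.6% and 48.4% of the summed EGLN TPM in WT and 61.8%, 61.5% and 63.8% in MLST8-KO. EGLN1 made up 45.3%, 46.6% and 49.8% in WT and 36.0%, 35.4% and 33.2% in MLST8-KO. For each, the groups did not overlap and the exact permutation test gave p = 0.1 (adjusted 0.125). The EGLN3 share was 2.48% ± 0.534 in WT and 2.74% ± 0.480 in MLST8-KO (SD, n = 3 each, exact permutation p = 0.5). The summed EGLN TPM was 59.4, 56.1 and 47.1 in WT and 75.3, 75.9 and 74.7 in MLST8-KO.

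**Figure D2:**
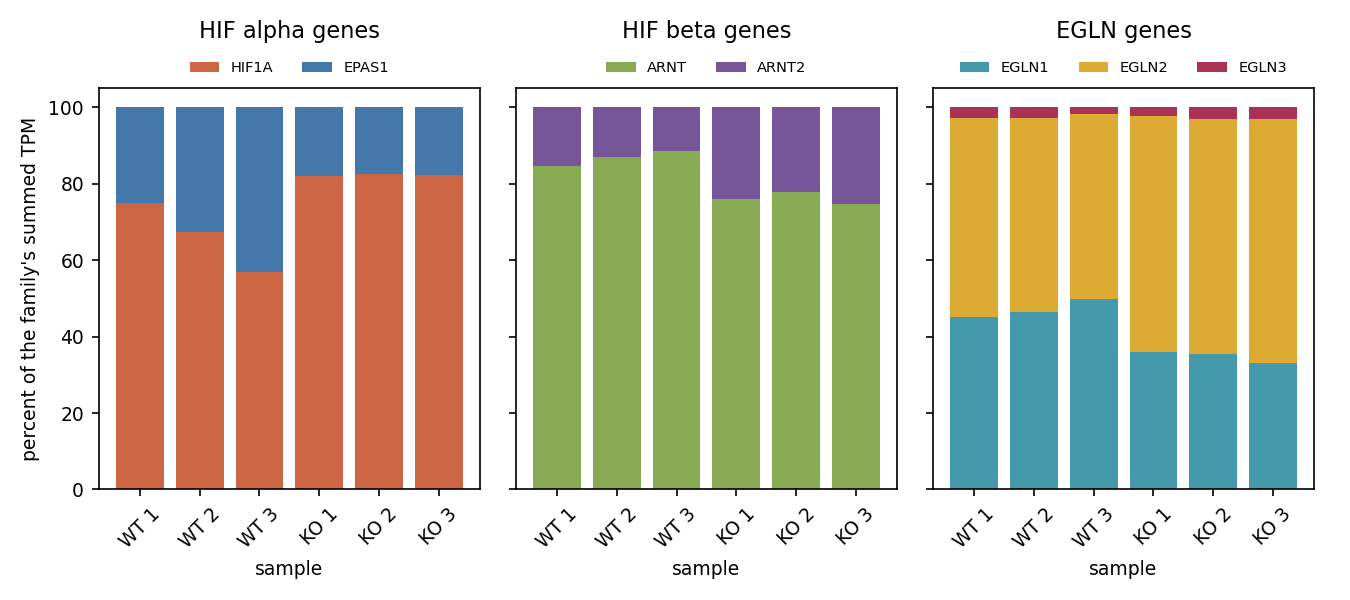
Percent of the summed TPM of each family contributed by each gene, as stacked bars for the 3 WT and 3 MLST8-KO (KO) samples. The EPAS1 part of the alpha bars shrinks from 25.0% to 43.1% in WT to 17.4% to 17.9% in MLST8-KO, and the ARNT2 and EGLN2 parts are larger in every MLST8-KO sample than in any WT sample.

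The promoter windows of EGLN1 and EGLN2, the most abundant hydroxylase genes, are shown because EGLN2 was called higher and EGLN1 was not called. They come from the same RefSeq table, at chr1:231422238-231422537 (minus) and chr19:40798941-40799240 (plus), with the same motifs in capitals.
EGLN1: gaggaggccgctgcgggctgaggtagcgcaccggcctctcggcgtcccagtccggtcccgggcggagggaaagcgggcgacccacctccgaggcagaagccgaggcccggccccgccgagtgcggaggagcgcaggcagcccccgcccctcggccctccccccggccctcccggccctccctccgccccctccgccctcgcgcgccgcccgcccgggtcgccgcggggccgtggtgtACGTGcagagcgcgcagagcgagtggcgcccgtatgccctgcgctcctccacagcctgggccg
EGLN2: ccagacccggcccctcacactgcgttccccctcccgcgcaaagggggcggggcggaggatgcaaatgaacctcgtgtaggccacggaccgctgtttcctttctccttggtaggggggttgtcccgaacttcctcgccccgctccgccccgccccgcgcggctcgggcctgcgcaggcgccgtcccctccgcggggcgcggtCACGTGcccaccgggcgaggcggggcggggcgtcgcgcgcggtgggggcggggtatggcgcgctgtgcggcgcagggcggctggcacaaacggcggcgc
EGLN1 held 1 match to ACGTG at -13 to -9. EGLN2 held the palindrome CACGTG at -49 to -44, which counts as ACGTG on each strand, and a further EGLN2 window held no match. Windows of ARNT, EGLN3 and HIF1AN held none of these letters. VHL and ARNT2 had no entry, leaving 8 of the 10 genes matched. The 8 include HIF3A, of which 1 window held 3 matches to GCGTG.

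HIF1AN and VHL passed no threshold, although VHL leaned lower in MLST8-KO on the CPM scale. HIF1AN lies at chr10:100529072-100559998 (plus strand) and stood at 12.04, 11.5 and 13.7 TPM in WT and 12.9, 12.2 and 12.5 TPM in MLST8-KO, where the MLST8-KO samples fell inside the WT range. Its log2 fold change was -0.09 (SE 0.10, edgeR adjusted p = 0.488), with a 95% confidence interval of 0.808-fold to 1.09-fold, and its sign turned on the TPM scale (0.02) and without WT replicate 3. NDUFB8 overlaps HIF1AN on the opposite strand.

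VHL, the substrate receptor of the ligase, lies at chr3:10141008-10152220 (plus strand). It stood at 31.3, 30.8 and 29.2 TPM in WT and 28.7, 30.6 and 26.3 TPM in MLST8-KO. The groups overlapped in TPM but not in CPM, where MLST8-KO samples were below WT samples. The log2 fold change of -0.20 (SE 0.08) missed the threshold (edgeR adjusted p = 0.0623), although its own 95% confidence interval, 0.771-fold to 0.976-fold, lay below 1.

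**Figure D3:**
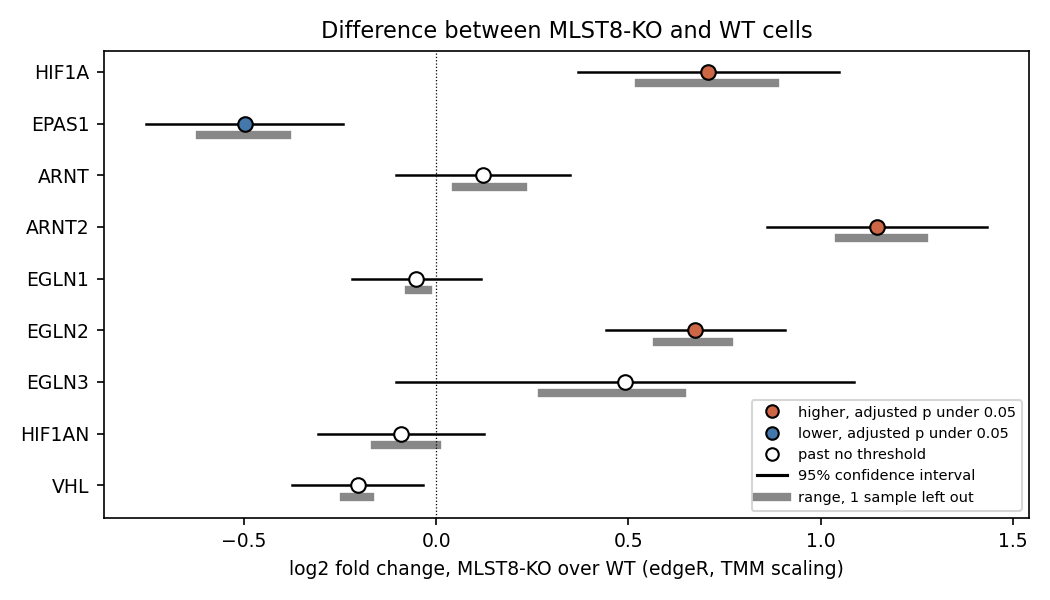
Log2 fold change of MLST8-KO over WT for each gene (edgeR, TMM scaling), with the 95% confidence interval as a thin line and the range over fits that each left out 1 sample as a grey bar. HIF1A (0.71), ARNT2 (1.15) and EGLN2 (0.67) are filled as higher, EPAS1 (-0.50) is filled as lower, and the other 5 are open.

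The 4 calls held under all 14 alternatives tried. Values ran from 0.53 to 0.88 for HIF1A, from -0.62 to -0.36 for EPAS1, from 1.04 to 1.27 for ARNT2 and from 0.57 to 0.79 for EGLN2. The other 5 genes were called under none of the 14. Without MLST8-KO replicate 1, the library with liver transcripts, HIF1A was at 0.73, EPAS1 at -0.49, ARNT2 at 1.11 and EGLN2 at 0.68, all still called, with EPAS1 nearest to the threshold (edgeR adjusted p = 0.0489).

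Other genes of the pathway were taken as 6 lists. Of their 72 genes, 68 were tested, of which 6 were higher, 13 lower and 49 without a call. Over all genes tested 16.3% were higher and 15.7% lower, and no test compared the lists with these shares. The median log2 fold change was -0.11 over the lists and 0.00 over all genes. These counts depended on the samples and the scale. Without WT replicate 1 they were 11 and 15, without WT replicate 2 they were 2 and 8, without MLST8-KO replicate 1 they were 2 and 5, without MLST8-KO replicate 2 they were 2 and 8, and with limma on log2(TPM + 1) they were 12 and 8.

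Among 8 genes of the VHL ubiquitin ligase, 1 was lower, the ubiquitin-conjugating enzyme UBE2D3 (-0.29), with a median of -0.21. That call was lost without WT replicate 2, without MLST8-KO replicate 1 and on the TPM scale. The scaffold CUL2 (-0.20), the RING subunit RBX1 (-0.21) and the adaptor ELOC (-0.21) had estimates close to that of VHL and passed no threshold. The rest, also without a call, were UBE2D1 (-0.25), ELOB (-0.18), UBE2D2 (-0.04) and NEDD8 (0.12). With limma on log2(TPM + 1) the list median was -0.08 and VHL was at -0.09. Of 11 other factors that bear on HIF alpha stability, 1 was lower, the ubiquitin ligase SIAH2 (-0.33), which targets prolyl hydroxylases for degradation. The median of that list was 0.00. On the TPM scale (limma) the list gave 2 higher and 0 lower calls.

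Coactivators and regulators of transactivation moved both ways. Of 9 genes, 3 were higher, led by CITED2 (0.95), which competes with HIF alpha for the coactivators CBP and p300, and followed by the coactivators NCOA2 (0.64) and NCOA1 (0.32). HEXIM1 (-0.47), an inhibitor of transcription elongation, and CITED4 (-0.43), a relative of CITED2, were lower. With MLST8-KO replicate 1, MLST8-KO replicate 2 or WT replicate 2 left out in turn, only the CITED2 and HEXIM1 calls held. EP300 (-0.05) and CREBBP (-0.11), which encode p300 and CBP, passed no threshold. Of the other bHLH-PAS factors, the protein family to which the HIF subunits belong, 8 of 11 were tested. Only AHRR, a repressor of the aryl hydrocarbon receptor, was called, at -1.19, from 7.91 ± 2.10 CPM in WT to 3.44 ± 0.726 CPM in MLST8-KO (SD, n = 3 each). The aryl hydrocarbon receptor gene AHR itself had a log2 fold change of 0.13.

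The 19 other 2-oxoglutarate oxygenases, enzymes that share the chemistry of the EGLN proteins, gave 3 higher and 4 lower calls, near the shares over all genes, with a median of -0.11. On the TPM scale (limma) the calls were 6 and 2. Higher were the DNA demethylase TET2 (0.68) and the histone demethylases KDM3A (0.56) and KDM4B (0.34). Lower were the RNA demethylase ALKBH5 (-0.94), the histone demethylase KDM6B (-0.52), JMJD6 (-0.51) and the collagen prolyl hydroxylase P4HA1 (-0.36). With MLST8-KO replicate 1 or MLST8-KO replicate 2 left out, only KDM3A was called higher and only ALKBH5 lower. KDM4B was also not called with DESeq2 or with no filter. ALKBH5 varied widely among WT samples, at 180.3 ± 61.1 CPM, against 94.2 ± 7.60 CPM in MLST8-KO (SD, n = 3 each).

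Of 14 genes known as HIF targets, 13 were tested and CA9 was not. These 14 are a selection, and genes counted elsewhere in this report can also be HIF-induced, as EGLN3 (0.49, no call) is. By edgeR none was higher and 4 were lower: the growth factor TGFA (-1.18), the angiogenic factor VEGFA (-0.52), NDRG1 (-0.46) and the mitophagy gene BNIP3 (-0.34). At an unadjusted p under 0.05 the edgeR test had 1 higher and 5 lower. The list median was -0.16. With DESeq2 the calls were 1 higher and 5 lower, and with limma on log2(TPM + 1) they were 1 and 3, in each case with CCND1 as the higher gene. Without MLST8-KO replicate 1 only TGFA and VEGFA were called. Without WT replicate 1 the calls were 2 higher (CCND1 and SLC2A1) and 4 lower. The BNIP3 call was lost with upper quartile scaling and on the TPM scale (limma). It was also lost when any single sample other than WT replicate 1 was left out. TGFA stood at 161.2 ± 36.6 CPM in WT and 70.9 ± 11.3 CPM in MLST8-KO, and VEGFA at 69.6 ± 10.9 and 48.5 ± 2.20 CPM (SD, n = 3 each). The glucose transporter gene SLC2A1 (0.21), PDK1 (-0.16) and CCND1 (0.30, edgeR adjusted p = 0.0543) passed no threshold in the main test. CCND1 was also called higher with upper quartile scaling and with a replicate block. SLC2A1 varied widely among WT samples, at 1552 ± 434.7 CPM, against 1798 ± 110.3 CPM in MLST8-KO (SD, n = 3 each).

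**Figure D4:**
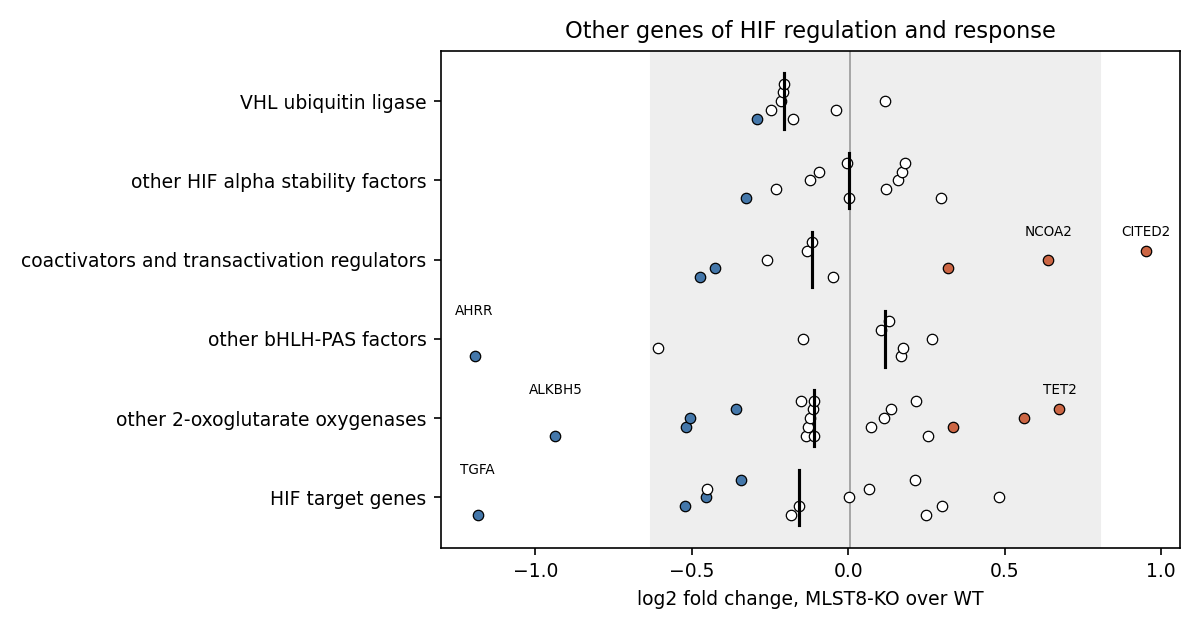
Log2 fold change of MLST8-KO over WT for the 68 tested genes of 6 lists, 1 point per gene, orange for higher, blue for lower and open for no call, with a bar at each list's median. The grey band spans the 5th to 95th percentile of all genes tested (-0.63 to 0.81) and most points lie inside it, with CITED2, AHRR, ALKBH5 and TGFA outside.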

How the data were processed

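RNA was selected for polyA and sequenced on the DNBSEQ platform. Per the study's methods, filtered reads were mapped with HISAT to the genome (GRCh38.p12) and with BowTie2 to its genes. The quantifier and its strand setting were not given in the sources used here, and the labels and the methods name different RNA extraction kits. The authors deposited, per gene and sample, estimated counts (12.4% not whole, here rounded), which are not normalized, and TPM, which are scaled by length and depth. Deposited FPKM and mean columns were not used, nor was a table of the authors' comparisons (fold changes, p-values and q-values).

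Groups came from the labels. Replicates differed by more than counting noise. The sources used here do not say whether they came from separate cultures, guides or clones, so p-values measure only the spread between these samples, which may be technical. Counts were scaled by TMM, filtered with filterByExpr and tested with edgeR 4.0.16 (quasi-likelihood test, all 6 samples, no covariate) in R 4.3.3, with Benjamini-Hochberg adjustment over 12951 genes and a threshold of 0.05. SE is the log2 fold change divided by the root of F. Shares of TPM within a family were compared by an exact two-sided permutation test with adjustment over 5 shares. As alternatives, limma 3.58.1 was run on log2(TPM + 1) and log2(TPM + 0.1) and DESeq2 1.42.0 on the counts, with other scalings and filters, a replicate block and each sample left out in turn. The tests were checked on simulated counts. A count of 0 allows up to 3 counts (at most 0.209 CPM, counting error only).

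Named genes were all members, MLST8, some of the overlapping genes and, per list, up to 3 called genes with the largest changes in each direction. Genes named beside these (P4HA1, BNIP3 and list genes without a call) were chosen after their values were seen. Counts per list under each alternative were added after seeing the data. Members and lists were chosen with earlier results of these data known. Gene positions are those of GENCODE 29, and promoter windows those of RefSeq.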

Additional observations from a re-analysis of the deposited data

How the results depend on the processing

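Each count of calls and each share was compared with its main value under each alternative. Of these comparisons, 84 were the same, 11 moved and 1 reversed. For counts, the same meant a similar number. For shares it meant the same direction only, whatever the size. For single members, 120 kept direction and side of the threshold and 6 reversed. The 4 calls among the members held in all 14 alternatives. Signs turned for members near 0: EGLN1 was at 0.044 with limma on log2(TPM + 1), 0.046 on log2(TPM + 0.1) and 0.0026 with upper quartile scaling, and HIF1AN at 0.019 and 0.020 on the TPM scales. Leaving out 1 sample moved HIF1AN between -0.159 (without WT replicate 2) and 0.00069 (without WT replicate 3). The EGLN3 share difference ran from -0.0457 points without WT replicate 3 to 0.538 points without MLST8-KO replicate 1. List genes called higher and lower were 12 and 8 on both TPM scales, against 6 and 13, and leaving out 1 sample gave 2 to 11 higher and 5 to 15 lower. Over all genes, calls numbered 2116 higher and 2030 lower, but 971 and 1044 without WT replicate 2, 979 and 850 without MLST8-KO replicate 1, and 1136 and 1091 without MLST8-KO replicate 2. On the TPM scale 1134 genes were lower with limma. The cause of these shifts was not tested. With leaving out 1 sample, the shares could not reach p below 0.2. Same-numbered samples had correlations of 0.10, 0.06 and 0.14 between their deviations, so the numbers were not taken to pair the samples, although each sample correlated best with its own number. With a replicate block, members gave 3 higher and 1 lower as before (EPAS1 -0.49, HIF1A 0.74), list genes 9 and 13, and all genes 2261 and 2157. The fewest counts stood behind EGLN3 (18 to 49).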

Other observations

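Across the 6 samples, the genes whose log2 CPM profiles lay nearest to that of EPAS1 were KLHL15, NUFIP2 and SRP72, with root mean square differences of 0.021, 0.024 and 0.035 on the log2 scale. The median over the 11187 genes compared was 0.31. Those nearest to EGLN3 were EPHB2, MTFR2 and FBXO5, at 0.069, 0.091 and 0.094, against a median of 0.41. EGLN3 rests on few counts, and profiles over 6 samples from 2 groups are a description only.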
